A study of Homo sapiens with 6 samples.

Results

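The genes described here are receptors for lysophosphatidic acid (LPA) and sphingosine 1-phosphate (S1P), together with the enzyme that makes each lipid. They were chosen by symbol and with the DSF/Cu against DMSO contrast of these libraries already known, so their values are a description and carry no test of their own. The 10 members, of 58825 genes in the table, were 5 LPA receptors (*LPAR1*, *LPAR2*, *LPAR3*, *LPAR5*, *LPAR6*), 3 S1P receptors (*S1PR1*, *S1PR2*, *S1PR3*), the LPA-producing enzyme *ENPP2* and the S1P-producing kinase *SPHK1*. All 10 symbols were found, each on 1 row. RNA came from MDA-MB-231, an established line from a human breast cancer of the triple-negative kind, grown with fetal bovine serum and antibiotics. Cells received disulfiram with copper (DSF/Cu) at 0.2 µM for 24 h, or the vehicle DMSO, with 3 repeats in each group and the cells of 3 wells pooled in each repeat. The labels do not say whether 0.2 µM is the concentration of disulfiram, of copper or of both, and no sample received either alone. Separate cultures are not stated for the repeats, so errors and p-values cover only the spread among these libraries, and that spread may be technical.

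LPA and S1P are small signalling lipids carried in serum and tissue fluid. Autotaxin, the secreted product of *ENPP2*, makes LPA outside the cell from lysophosphatidylcholine, whereas sphingosine kinases make S1P inside the cell, from which it is exported. Both lipids act through G protein-coupled receptors that signal through Gi, Gq and G12/13 to calcium and the cytoskeleton, and they are known in breast cancer cells for promoting migration and survival.

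Libraries held 55563223 to 61633168 counts in DSF/Cu and 62165212 to 70883177 in DMSO. Across tested genes, Pearson correlations of log2 CPM (counts scaled to library size with TMM factors) ranged over 0.9652 to 0.9747 for libraries of the same group, against 0.927 to 0.9345 for libraries of different groups. These are correlations over genes, which are not independent replicates. The labels name no batch. The 6 mesenchymal markers of the line, mostly *VIM*, summed to 3938 to 4407 CPM in DSF/Cu and 5004 to 5332 CPM in DMSO, with *ZEB1* called higher and *VIM* and *AXL* called lower. Of the luminal epithelial markers *KRT8*, *KRT18* and *EPCAM* were called lower, and the list summed to 198 to 209 CPM in DSF/Cu and 310 to 369 CPM in DMSO. *GATA3* (log2 fold change 0.29) and *FOXA1* (0.75) lay the other way without a call, and *CDH1* was not tested. Of the receptors low in triple-negative cells, *ESR1* was at 0.277 CPM in DSF/Cu and 0.105 CPM in DMSO, without a call. *PGR* was at 0.440 CPM in DSF/Cu and 0.751 CPM in DMSO, also without a call. *ERBB2* was called lower, at 39.7 CPM in DSF/Cu and 69.45 CPM in DMSO. The endothelial list summed to 3.26 to 3.91 CPM in DSF/Cu and 6.45 to 7.77 CPM in DMSO. There *KDR* was called lower, *PECAM1* was higher without a call (log2 fold change 1.03) and *CDH5* was at 0. The fibroblast list summed to 5.49 to 7.30 CPM in DSF/Cu and 1.67 to 3.29 CPM in DMSO (*COL1A1* called higher, *DCN* and *LUM* at 0). The part of these markers in the results was not tested. All 5 adipocyte markers and 4 of 5 immune markers were below the count filter, and *ADIPOQ* and *CD3E* had 0 counts in every library. *CD14*, the 1 immune marker tested, was called higher, at 1.62 CPM in DSF/Cu and 0.264 CPM in DMSO.

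The promoters of *LPAR1* and *SPHK1* are shown because these were the members with the highest levels, and they differed between groups in opposite directions. Each window runs from 250 bases before to 50 bases after the RefSeq start nearest to the 5′ end of the gene in the table (GRCh38.p14), 5′ to 3′ on the gene's strand. Capitals mark matches to the motifs searched. *LPAR1* has 6 RefSeq starts, and the window shown is chr9:111038038-111038337 on the minus strand. *SPHK1* has 3, and its window is chr17:76382954-76383253 on the plus strand. The start is 44 bases from the 5′ end in the table for *LPAR1*, but 6620 bases from it, inside the tabled gene, for *SPHK1*.
LPAR1 promoter: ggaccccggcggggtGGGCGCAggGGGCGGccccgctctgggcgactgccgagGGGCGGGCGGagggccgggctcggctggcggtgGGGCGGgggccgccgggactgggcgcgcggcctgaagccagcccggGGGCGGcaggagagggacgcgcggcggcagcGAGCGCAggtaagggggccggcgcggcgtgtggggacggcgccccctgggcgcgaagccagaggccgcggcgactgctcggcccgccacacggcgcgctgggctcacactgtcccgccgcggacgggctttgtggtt
SPHK1 promoter: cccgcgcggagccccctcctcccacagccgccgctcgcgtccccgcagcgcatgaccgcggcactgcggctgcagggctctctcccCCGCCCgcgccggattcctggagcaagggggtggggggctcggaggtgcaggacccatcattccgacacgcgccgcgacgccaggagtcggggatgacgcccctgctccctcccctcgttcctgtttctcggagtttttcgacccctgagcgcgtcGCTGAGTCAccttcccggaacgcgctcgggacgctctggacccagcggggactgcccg

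The motifs were searched on both strands: the heat shock elements GAANNTTC and TTCNNGAA, the antioxidant response element TGACNNNGC, the AP-1 site TGAGTCA, the metal response elements TGCGCNC and TGCACNC, the ATF/CRE site TGACGTCA, the TATA box TATAAA and the GC box GGGCGG. The *SPHK1* window held an AP-1 match at position -6, counted from 0 at the start, inside a match to the antioxidant response element, so these letters count for both. The AP-1 letters were in 2 of 3 *SPHK1* windows and in 0 of 6 *LPAR1* windows, against 4.95% of all 35116 RefSeq windows of this length. The antioxidant response element was in 2 of 3 *SPHK1* windows and 1 of 6 *LPAR1* windows, against 13.3% of all windows. Whether these motifs had a part in the changes was not tested. Both were in the 1 window of *LPAR2*, and the antioxidant response element in that of *S1PR1*, genes without a call. Neither was in the 2 windows of *S1PR3*, which was called higher, nor in those of *LPAR3*, *LPAR5*, *LPAR6* and *S1PR2*. The *LPAR1* window shown held 2 metal response matches of the form TGCGCNC and otherwise 5 GC boxes, a motif in 45.0% of all windows. TGCGCNC was in 3 of 6 *LPAR1* windows, 1 of 2 *S1PR3* windows and 0 of 3 *SPHK1* windows, against 7012 of all 35116 windows. It was also in the 1 window each of *LPAR2*, *LPAR3* and *S1PR2*, and not in those of *LPAR5*, *LPAR6* and *S1PR1*. The heat shock form TTCNNGAA was in 1 of 6 *LPAR1* windows and in that of *S1PR1*, and the ATF/CRE site in that of *S1PR2*. The metal form TGCACNC was found only for *LPAR2*. The part of these motifs in the changes was not tested. A match is a run of letters and not a measured binding site. RefSeq promoter windows were found for 9 of the 10 members, and not for *ENPP2*.

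After DSF/Cu, *LPAR1* was lower and *SPHK1*, *ENPP2* and *S1PR3* were higher than in DMSO, while the other receptors lay within the spread between libraries. Of the 10 members, 9 passed the filter on low counts and *LPAR6* did not. Of those 9, edgeR's quasi-likelihood test called 4 at a Benjamini-Hochberg adjusted p under 0.05 over all 18229 genes tested, with 3 higher and 1 lower. In the same fit 35.2% of all tested genes were called. As shares of all tested genes, 18.5% were called higher and 16.8% lower. The CPM values of the groups did not overlap for the same 4 members, and for 51.2% of all tested genes. The median log2 fold change was 0.44 over the 9 members and 0.002 over all tested genes. Nothing is read from these counts, since the members were chosen with this contrast known. The count of calls was 3 or 4 under every alternative, and *S1PR3* was the member that lost its call.

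**Figure D1:**
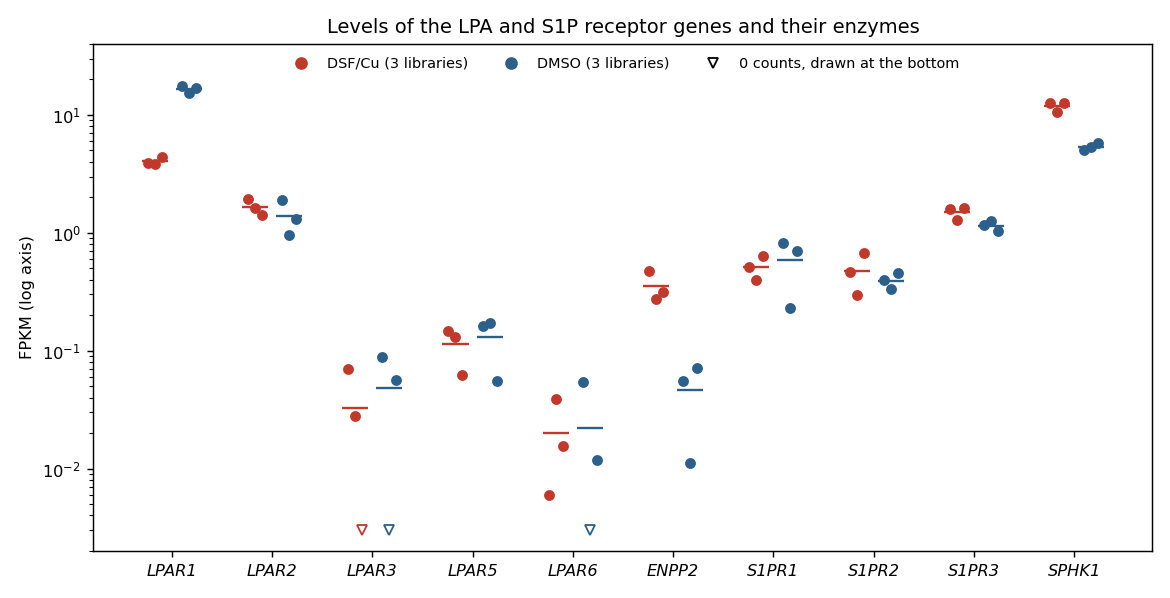
Levels of the 10 members in FPKM (fragments scaled to gene length and library size, log axis) in the 3 DSF/Cu libraries (red, left) and the 3 DMSO libraries (blue, right), with the group mean as a line and libraries with 0 counts as open triangles at the bottom. *LPAR1* averaged 4.07 FPKM in DSF/Cu and 16.6 in DMSO, and *SPHK1* 12.0 in DSF/Cu and 5.38 in DMSO.

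*LPAR1* encodes the LPA receptor first identified, a member of the EDG family that couples to Gi, Gq and G12/13. It lies on chromosome 9 (110873263 to 111038043 in the table, minus strand, GRCh38). Its counts were 1179, 1147 and 1198 in the DSF/Cu libraries, against 6174, 4738 and 5140 in the DMSO libraries. Scaled to library size these were 20.9, 19.9 and 22.7 CPM in DSF/Cu, against 81.0, 70.7 and 77.8 CPM in DMSO. The highest DSF/Cu library was thus below the lowest DMSO library by a wide margin, and libraries of a group lay close together. *LPAR1* averaged 21.1 ± 1.41 CPM in DSF/Cu and 76.5 ± 5.28 CPM in DMSO (SD, n = 3 each), which is 3.62-fold lower in DSF/Cu, with a log2 fold change of -1.86 ± 0.09 (SE). Falls of at least 2-fold that passed the threshold made up 1.87% of tested genes, and *LPAR1* ranked 50 of 3059 genes called lower by fitted fold change. In RNA from whole cultures, fewer cells that express a gene and less RNA per cell cannot be told apart.

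*LPAR2*, an EDG-family receptor with close similarity to *LPAR1*, (chromosome 19, 19623655 to 19628221, minus strand) had 7.41, 6.04 and 5.26 CPM in the DSF/Cu libraries, against 6.22, 3.19 and 4.39 CPM in the DMSO libraries. The groups overlapped, and the log2 fold change was 0.44 ± 0.27 (SE) with no call. *LPAR3*, the remaining EDG-family LPA receptor, had 18, 8 and 0 counts in DSF/Cu and 27, 0 and 15 in DMSO. *LPAR5*, of the other LPA receptor branch related to purinergic receptors, had 31, 27 and 12 counts in DSF/Cu and 38, 38 and 12 in DMSO. *LPAR6*, which belongs to that branch and is known for its part in hair growth, had 2, 13 and 6 counts in DSF/Cu and 21, 0 and 4 in DMSO. The groups overlapped for each of these 3 genes, the libraries of a group lay far apart, and no difference beyond that spread was detectable. *LPAR3* had a log2 fold change of -0.34 ± 1.49 (SE), whose sign changed when DSF/Cu replicate 3 (0.24) or DMSO replicate 1 (0.42) was left out. *LPAR5* had a log2 fold change of -0.003 ± 0.59 (SE), without a call. *LPAR6* lies within the span of *RB1* on chromosome 13 but shares no exon base with it in GENCODE 29.

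**Figure D2:**
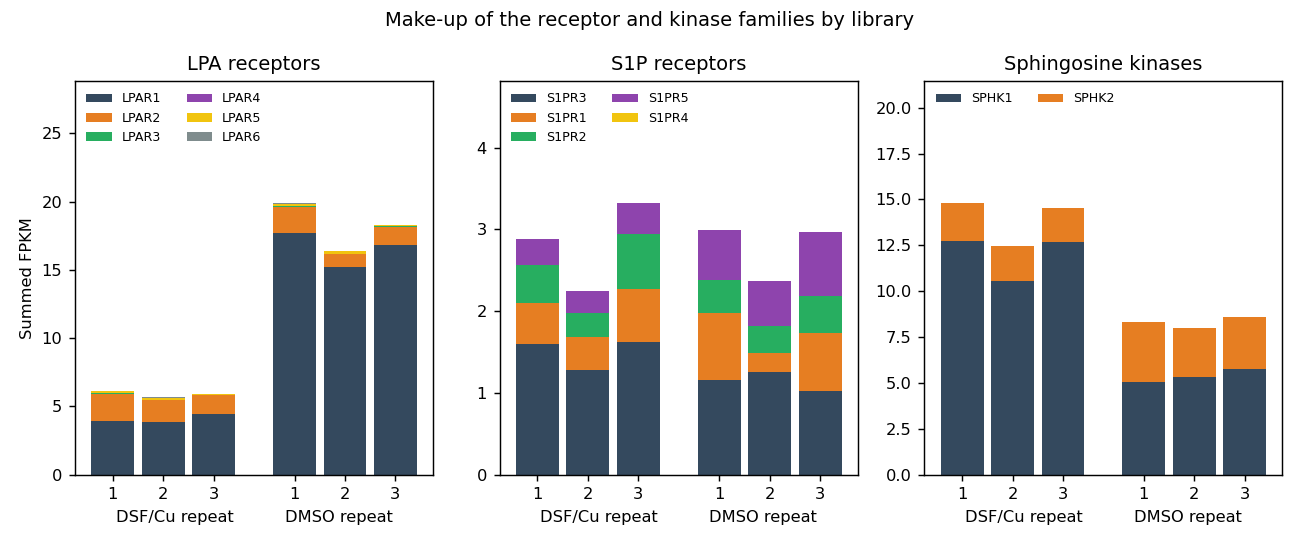
Summed FPKM of the LPA receptors, the S1P receptors and the sphingosine kinases in each library, stacked by gene, with DSF/Cu repeats left and DMSO repeats right. The LPA receptor bars reach 5.67 to 6.11 in DSF/Cu and 16.4 to 19.9 in DMSO, and the S1P receptor bars 2.24 to 3.32 in DSF/Cu and 2.37 to 2.99 in DMSO.

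In the gene table's own annotation all 10 members carry the plasma membrane term and the 8 receptors carry G protein-coupled receptor activity. Of the KEGG pathways given there, phospholipase D signalling lists 6 members and the sphingolipid signalling pathway 4.

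Over all 6 LPA receptor genes, *LPAR4* included, summed levels were 6.11, 5.67 and 5.93 FPKM in the DSF/Cu libraries, against 19.9, 16.4 and 18.3 FPKM in the DMSO libraries. *LPAR1* made up 69.0 ± 5.18% of this sum in DSF/Cu and 91.4 ± 2.17% in DMSO (SD, n = 3 each). The lowest DMSO share was 89.0% and the highest DSF/Cu share 74.6%. *LPAR2* made up 28.2 ± 3.94% in DSF/Cu and 7.51 ± 1.86% in DMSO. The share of *LPAR2* thus differed between groups where its own level did not pass the threshold. These shares restate the lower *LPAR1* level on another scale and are no further evidence of it.

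*ENPP2*, on chromosome 8 (119557086 to 119673453, minus strand), was a low-level gene in these cells. Its counts were 234, 135 and 140 in the DSF/Cu libraries, against 32, 6 and 36 in the DMSO libraries. Every DSF/Cu library was above every DMSO library, and DMSO replicate 2 was far below the other DMSO libraries. *ENPP2* averaged 3.04 ± 0.968 CPM in DSF/Cu and 0.351 ± 0.235 CPM in DMSO (SD, n = 3 each), a log2 fold change of 3.11 ± 0.61 (SE). In FPKM, a scale that takes length into account, it reached 0.355 in DSF/Cu and 0.0459 in DMSO. Its DSF/Cu level was therefore still below that of *LPAR1* and *SPHK1* in either group. Without DMSO replicate 2 the log2 fold change was 2.65.

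*SPHK1*, on chromosome 17 (76376584 to 76387860, plus strand), encodes the sphingosine kinase that acts mainly in the cytosol and at the plasma membrane. Its counts were 4043, 3341 and 3650 in the DSF/Cu libraries, against 1878, 1772 and 1861 in the DMSO libraries. The corresponding levels were 71.7, 57.9 and 69.0 CPM in DSF/Cu and 24.6, 26.4 and 28.2 CPM in DMSO, with no overlap. *SPHK1* was 2.51-fold higher in DSF/Cu, with a log2 fold change of 1.33 ± 0.10 (SE). Rises of at least 2-fold past the threshold made up 7.42% of tested genes, and *SPHK1* ranked 998 of 3365 genes called higher. The exons of *SPHK1* share 59 bases with *PRPSAP1* on the opposite strand, 1.34% of their length in GENCODE 29. Whether counting used strand is not given in the sources used here.

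*S1PR3*, a receptor that couples to Gi, Gq and G12/13, was the S1P receptor with the highest FPKM in both groups. It lies on chromosome 9 (88990863 to 89005155, plus strand), as does *LPAR1*. Its counts were 1572, 1266 and 1453 in DSF/Cu and 1340, 1294 and 1034 in DMSO, which overlap before scaling. After scaling it had 27.9, 21.9 and 27.5 CPM in the DSF/Cu libraries, against 17.6, 19.3 and 15.7 CPM in the DMSO libraries, with no overlap. Its log2 fold change was 0.56 ± 0.13 (SE). This call depended on the scaling and on single libraries: the fold change was 0.37 with no call under total-count scaling, where the median of all tested genes was -0.18. The call was also lost with DSF/Cu replicate 1 (log2 fold change 0.50), DSF/Cu replicate 3 (0.51), DMSO replicate 1 (0.56) or DMSO replicate 3 (0.48) left out.

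*S1PR1*, the Gi-coupled receptor known for guiding lymphocytes out of lymphoid tissue, had 3.42, 2.58 and 4.14 CPM in DSF/Cu and 4.72, 1.36 and 4.13 CPM in DMSO. The DSF/Cu libraries all lay within the range of the DMSO libraries, and DMSO replicate 2 stood far below the other DMSO libraries. *S1PR2*, a receptor that signals mainly through G12/13, had 2.16, 1.35 and 3.05 CPM in DSF/Cu and 1.59, 1.36 and 1.85 CPM in DMSO, with overlap. The log2 fold changes were -0.01 ± 0.46 for *S1PR1* and 0.45 ± 0.33 for *S1PR2* (SE), both without a call. *S1PR2* shares 83 exon bases with *DNMT1* on the same strand, 2.28% of its exon length. *DNMT1* had 13133 to 13305 counts in DSF/Cu and 19829 to 25095 in DMSO, and whether reads of *DNMT1* are among the *S1PR2* counts was not tested.

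DMSO replicate 2 was the lowest DMSO library for 7 of the 10 members, and was under 1/2 of both other DMSO libraries for 4 of them (*LPAR3*, *LPAR6*, *ENPP2* and *S1PR1*). Over all tested genes it did not stand apart in this way: 3.66% of genes were under 1/2 of both others in that library, within the range of 2.91% to 3.75% over the 6 libraries. Without it, edgeR called *LPAR1*, *ENPP2*, *S1PR3* and *SPHK1* as before.

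**Figure D3:**
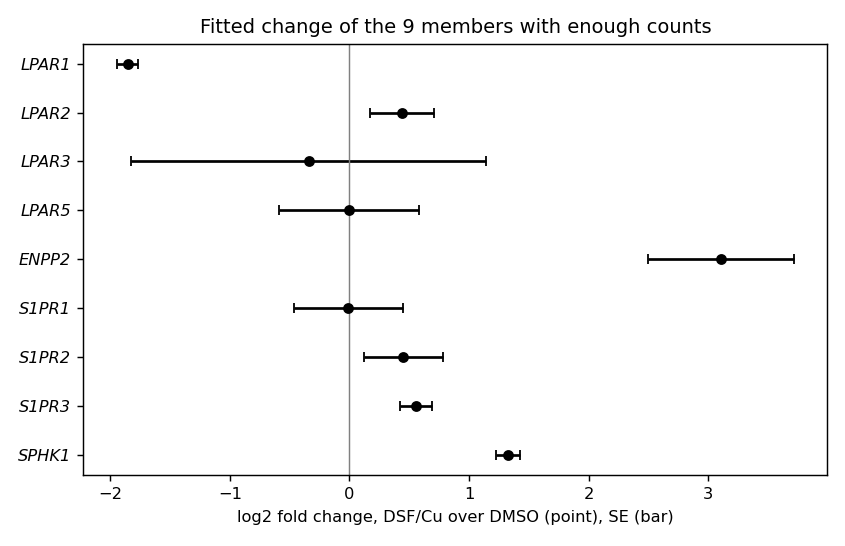
Log2 fold change of DSF/Cu over DMSO (point) with its SE (bar) from edgeR for the 9 members that passed the count filter. *LPAR1* (-1.86) is the only point far to the left, *ENPP2* (3.11) and *SPHK1* (1.33) lie to the right, and the bar of *LPAR3* (SE 1.49) is the widest.

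Ordered by FPKM in DSF/Cu, the members ran *SPHK1* (12.0), *LPAR1* (4.07), *LPAR2* (1.67), *S1PR3* (1.503), *S1PR1* (0.516), *S1PR2* (0.479), *ENPP2* (0.355), *LPAR5* (0.113), *LPAR3* (0.0328) and *LPAR6* (0.0201). In DMSO the order was *LPAR1* (16.6), *SPHK1* (5.38), *LPAR2* (1.39), *S1PR3* (1.15), *S1PR1* (0.586), *S1PR2* (0.394), *LPAR5* (0.130), *LPAR3* (0.0483), *ENPP2* (0.0459) and *LPAR6* (0.0221). *SPHK1* thus stood first in DSF/Cu and *LPAR1* first in DMSO, and the libraries of this pair did not overlap in either group. The ranges of *LPAR2* and *S1PR3* overlapped in both groups, as did those of *S1PR1* and *S1PR2* and those of *LPAR5* and *LPAR3*. *LPAR3* also overlapped *LPAR6* in DSF/Cu, so these neighbours cannot be ordered. *ENPP2* overlapped its neighbour *S1PR2* in DSF/Cu and its neighbours *LPAR3* and *LPAR6* in DMSO.

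Profiles most like those of the 3 members with the highest mean FPKM were sought by the root mean square difference of centred log2 CPM over the 6 libraries. For *LPAR1* the nearest genes were *SHISA3* (difference 0.111) and *SAPCD2* (0.138). *SHISA3* had 5.18, 5.02 and 6.81 CPM in DSF/Cu, against 20.1, 20.6 and 20.6 CPM in DMSO. For *SPHK1* they were *BNIP3L*, a mitophagy receptor (0.0690), and *TAGLN*, an actin-binding protein of contractile cells (0.0768). For *LPAR2* they were the channel gene *HCN2* (0.0845) and the antisense gene *AC005037* (0.0897). With 6 libraries in 2 groups, likeness for *LPAR1* and *SPHK1* reflects mostly the size of the difference between groups.

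The remaining receptors were read from the same fit. *S1PR5*, a Gi- and G12-coupled S1P receptor, had 1.13, 0.935 and 1.31 CPM in DSF/Cu, against 1.92, 1.70 and 2.44 CPM in DMSO. It fell by 0.84 ± 0.25 on the log2 scale (SE, edgeR adjusted p = 0.0379). With any 1 of the 6 libraries left out it was still lower, by a log2 fold change of -0.96 to -0.69, but without a call (edgeR adjusted p from 0.0525 to 0.121). The call was also lost with no filter on low counts (-0.86, edgeR adjusted p = 0.0634). It made up 11.3 ± 0.505% of summed S1P receptor FPKM in DSF/Cu and 23.3 ± 2.86% in DMSO (SD, n = 3 each). *S1PR3* made up 55.3, 57.4 and 49.0% in the DSF/Cu libraries, against 38.9, 53.3 and 34.6% in the DMSO libraries, with overlap. *LPAR4* and *S1PR4* had 0 counts in every library, where 3 counts correspond to 0.0520 to 0.0567 CPM in DSF/Cu and 0.0394 to 0.0454 CPM in DMSO. *GPR132*, a receptor reported to respond to lysophospholipids and oxidised fatty acids, rose by 1.40 ± 0.30 (edgeR adjusted p = 0.0121). *GPR55*, a receptor for lysophosphatidylinositol, rose by 1.84 ± 0.46 (edgeR adjusted p = 0.0223). It was still higher but not called once DSF/Cu replicate 1 (log2 fold change 1.52, edgeR adjusted p = 0.0769), DMSO replicate 2 (1.70, 0.0711) or DMSO replicate 3 (1.67, 0.0696) was left out. It was also not called by limma on log2(FPKM + 1) (0.15, adjusted p = 0.0992) or on log2(FPKM + 0.1) (0.80, 0.0754). *S1PR5*, *GPR132* and *GPR55* were the 3 genes tested of 9 on the list of other lysophospholipid receptors. All 3 were called, against 35.2% of all tested genes. Only 1 was called without DSF/Cu replicate 1, DMSO replicate 2 or DMSO replicate 3.

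Of 111 other genes of LPA and S1P signalling, 101 were tested and 50 were called, 17 higher and 33 lower. That is 49.5% of those tested, against 35.2% of all tested genes, and their median log2 fold change was -0.21 against 0.002. The count over the alternatives ran from 34, without DMSO replicate 2, to 61, under total-count scaling. Over the lists described below, the share called ran from 35.3% for breakdown and export to 57.6% for G proteins and effectors. Nothing is read from these shares, since the lists were chosen with earlier results of these data known.

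**Figure D4:**
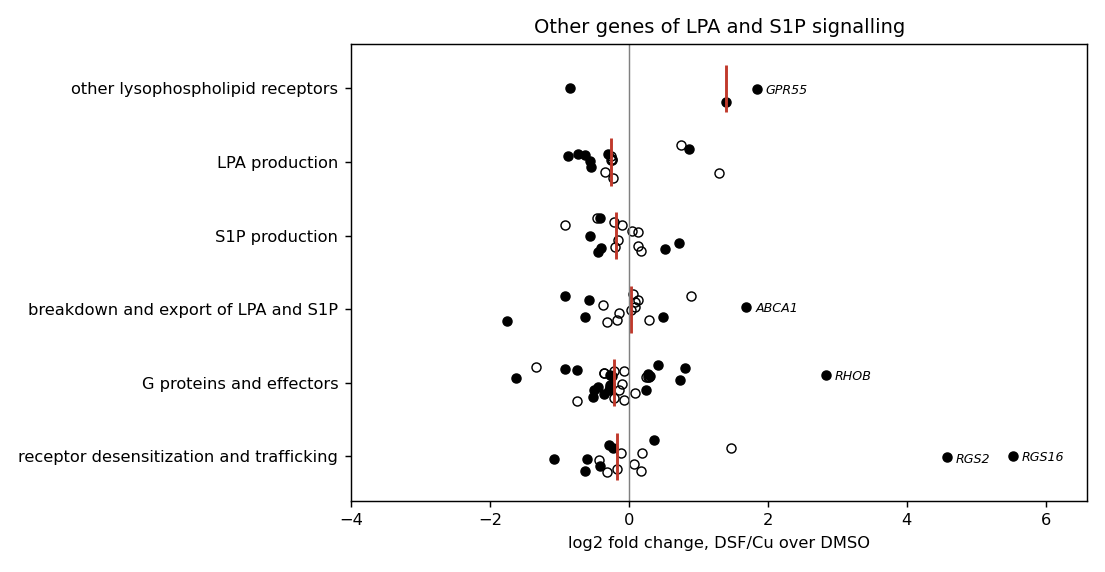
Log2 fold change of DSF/Cu over DMSO for the tested genes of 6 lists of LPA and S1P signalling, with filled points for genes past the threshold, open points for the others, and the list median as a red line. *RGS2* (4.57) and *RGS16* (5.53) among the desensitisation genes and *RHOB* (2.84) among the effectors lie farthest to the right.

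Among 15 tested genes of LPA metabolism 1 rose, 6 fell and 8 were not called (46.7% called, median log2 fold change -0.26). The share called over all tested genes was 35.2%. *LIPH*, a membrane-bound phospholipase that makes LPA from phosphatidic acid, rose by 0.86 ± 0.12 (SE, edgeR adjusted p = 0.0026), with 26.2, 32.7 and 32.5 CPM in DSF/Cu, against 15.4, 16.6 and 18.5 CPM in DMSO. *AGPAT1* fell by 0.62 ± 0.05 (adjusted p = 4.16e-04), *LPCAT1* by 0.56 ± 0.07 (0.00153) and *PLA2G4A* by 0.74 ± 0.13 (0.00581). Not all of these make LPA: *AGPAT1* consumes it by adding a second acyl chain inside the cell, *LPCAT1* acylates lysophosphatidylcholine, and *PLA2G4A*, a cytosolic phospholipase, is best known for releasing arachidonic acid.

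Among 16 tested genes on the way to S1P, 2 rose, 4 fell and 10 were not called (37.5% called, median -0.18). The share over all tested genes was 35.2%. *SPTLC2* rose by 0.71 ± 0.05 (edgeR adjusted p = 2.48e-04) and *SPTLC1* by 0.52 ± 0.07 (0.00152), both subunits of serine palmitoyltransferase, the first step of sphingolipid synthesis. The alternative subunit *SPTLC3* fell by 0.56 ± 0.10 (0.0053), and *CIB1*, a calcium-binding protein that carries SPHK1 to the plasma membrane, fell by 0.41 ± 0.08 (0.00843). *SPHK2*, the other sphingosine kinase, had 16.0, 14.5 and 13.7 CPM in DSF/Cu, against 21.5, 17.7 and 19.1 CPM in DMSO. It fell by 0.40 ± 0.11 (adjusted p = 0.0334), with the call lost without DSF/Cu replicate 2 (adjusted p = 0.0959), DSF/Cu replicate 3 (0.102), DMSO replicate 1 (0.0926) or DMSO replicate 3 (0.0722). *SPHK1* made up 85.9 ± 1.44% of the summed FPKM of both kinases in DSF/Cu and 64.9 ± 3.46% in DMSO (SD, n = 3 each). On the opposite strand, the exons of *SPHK2* overlap those of *AC022154.1* by 678 bases, *DBP* by 661 and *RPL18* by 246. *RPL18*, a ribosomal protein gene, had 31606 to 35302 counts a library, *DBP* 52 to 131 and *AC022154.1* 9 to 64. The count of *SPHK2* is therefore uncertain.

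Among 17 tested genes of breakdown and export, 2 rose, 4 fell and 11 were not called (35.3% called, median 0.03). This was close to the 35.2% of all tested genes. *ABCA1*, a cholesterol and phospholipid exporter also linked to S1P export, rose by 1.69 ± 0.13 (SE, edgeR adjusted p = 2.71e-04). The S1P exporter *SPNS2*, named after its value was seen, fell by 1.75 ± 0.55 (edgeR adjusted p = 0.0491). Its counts were 4, 9 and 11 in DSF/Cu and 49, 27 and 28 in DMSO, and its call was not kept under every alternative. *PLPP5*, a lipid phosphatase, rose by 0.49 ± 0.10 (0.00833), and *ACP6*, a mitochondrial LPA phosphatase, fell by 0.63 ± 0.10 (0.00378). *MFSD2A*, which imports lysophosphatidylcholine rather than LPA or S1P, fell by 0.57 ± 0.12 (0.0103). The ectoenzymes that remove LPA and S1P at the cell surface gave no call: the log2 fold change was 0.03 ± 0.11 for *PLPP1* (adjusted p = 0.847), -0.31 ± 0.11 for *PLPP2* (0.0772) and 0.09 ± 0.16 for *PLPP3* (0.727). *PLPP2* was called lower under total-count scaling (-0.50, edgeR adjusted p = 0.00967), without DSF/Cu replicate 1 (-0.44, edgeR adjusted p = 0.0108), and by limma on log2(FPKM + 1) (-0.39, adjusted p = 0.0155) and log2(FPKM + 0.1) (-0.48, 0.0157). S1P lyase, *SGPL1*, which degrades S1P irreversibly, was at 0.09 ± 0.05 (adjusted p = 0.242).

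Among 33 tested G proteins and effectors, 7 rose, 12 fell and 14 were not called (57.6% called, median -0.22). Over all tested genes 35.2% were called. *RHOB*, a small GTPase induced by stress and growth factors, had 105, 87.6 and 94.7 CPM in DSF/Cu, against 13.01, 12.69 and 14.56 CPM in DMSO, a rise of 2.84 ± 0.10 (SE, edgeR adjusted p = 2.1e-05). *GNA13*, the G13 alpha subunit, rose by 0.80 ± 0.06 (2.02e-04). The G12 alpha gene *GNA12*, named after its value was seen, fell by 0.28 ± 0.05 (0.00694). The adenylyl cyclases *ADCY3* and *ADCY7*, which make cyclic AMP and are regulated by G proteins, fell by 0.92 ± 0.13 (0.0025) and 0.74 ± 0.11 (0.00317).

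Among 17 tested genes of receptor desensitisation and trafficking, 3 rose, 6 fell and 8 were not called (52.9% called, median -0.17). Of all tested genes, 35.2% were called. *RGS2*, which speeds GTP hydrolysis by Gq, had 171, 146 and 133 CPM in DSF/Cu, against 5.41, 5.53 and 7.96 CPM in DMSO, a rise of 4.57 ± 0.20 (SE, edgeR adjusted p = 3.9e-05). *RGS16*, which acts on Gi and Gq, was nearly silent in DMSO, with 8, 0 and 8 counts, and had 235, 220 and 149 counts in DSF/Cu, a rise of 5.53 ± 0.73 (0.00194). *RGS19*, another regulator of Gi, fell by 1.08 ± 0.10 (5.65e-04), and the receptor kinase *GRK6* fell by 0.61 ± 0.09 (0.00256). The number called on this list was 5 without DSF/Cu replicate 3, 5 without DMSO replicate 1, 4 without DMSO replicate 2 and 5 without DMSO replicate 3.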

How the data were processed

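Poly(A) RNA was sequenced as paired ends. The deposited table holds whole-number read counts per gene made by the authors and, in separate columns, FPKM values computed by the authors. The submitters' processing notes list Bowtie 0.12.2, HISAT2 2.0 and StringTie 1.3.0 and the build mm8. The genes are human, however, and 58190 of 58825 lie on the same chromosome as in GENCODE 29 (GRCh38) with starts within 1 kb. The counting tool is not given in the sources used here, nor is its strand setting.

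Counts were fitted with edgeR 4.0.16 (R 4.3.3; filterByExpr, TMM, quasi-likelihood test, Benjamini-Hochberg adjustment over 18229 genes, threshold 0.05), with libraries of both groups in 1 fit and no covariate. A call means an adjusted p under the threshold. The members, the lists of pathway genes and the tests were chosen with earlier results of these data known. All members are named, with up to 4 called genes of each list by adjusted p, the partner genes *SPHK2*, *SGPL1*, *PLPP1*, *PLPP2*, *PLPP3*, *LPAR4*, *S1PR4* and *S1PR5*, and the 2 nearest profiles of 3 members. CPM is counts scaled by TMM, and FPKM was used for levels between genes. Promoter windows came from RefSeq (GRCh38.p14). Alternatives were total-count scaling, DESeq2 1.42.0, no count filter, limma 3.58.1 on log2(FPKM + 1) and log2(FPKM + 0.1), a replicate block, and each library left out. The shares within families and their leave-outs were added after seeing the data. Steps were tested on simulated counts.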

Additional observations from a re-analysis of the deposited data

How the results depend on the processing

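*LPAR1* (log2 fold change -2.04 to -1.79), *SPHK1* (1.02 to 1.42) and *ENPP2* kept their direction and call under every alternative run. For *ENPP2* the value was 2.65 to 3.55 on counts, against 0.371 on log2(FPKM + 1) and 1.64 on log2(FPKM + 0.1), where the pseudocount compresses a low gene. *S1PR3* lost its call under total-count scaling (0.37), the replicate block (0.554), log2(FPKM + 1) (0.217) and log2(FPKM + 0.1) (0.355), and ranged over 0.477 to 0.664 with single libraries left out. The sign turned for members without a call: *LPAR3* ranged over -1.44 to 0.423, *LPAR5* over -0.362 to 0.294 and *S1PR1* over -0.394 to 0.297 with single libraries left out, and with the replicate block *LPAR5* was at 0.0511 and *S1PR1* at 0.141. Among genes without a call, total-count scaling, log2(FPKM + 1) and log2(FPKM + 0.1) gave -0.153, -0.125 and -0.138 for *PLPP1* (-0.033 to 0.126 with single libraries left out), -0.101, -0.04 and -0.0834 for *PLPP3*, and -0.0949, -0.0724 and -0.0802 for *SGPL1*. Total-count scaling moved the median of all genes to -0.18, and 32.7% of its calls were higher, against 52.4% with TMM; limma gave 33.7% and 34.5%. Same-numbered repeats showed no strong shared deviation (correlations 0.0214, -0.00775 and 0.0441). These values cannot tell whether the numbers pair the samples, because paired samples need not share a strong deviation. The replicate block gave 5143 calls over all genes, against 6424, and *S1PR5* lost its call (-0.84, edgeR adjusted p = 0.0533). Of the 50 pathway calls, 29 kept direction and call under every alternative. Causes were not tested. No library exceeded 38 counts for *LPAR3*, *LPAR5* or *LPAR6*.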
